A study of Mus musculus with 15 samples.

Results

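The genes followed here are p53 targets in cell cycle arrest: Cdkn1a, Ccng1, Zmat3, Psrc1, Gtse1, Plk2, Plk3, Btg2 and Ckap2. They were taken by name as 9 of the 55487 mouse genes in the deposited count tables, and all 9 passed the filter on low counts in each comparison. RNA sequencing had been done on erythroid progenitors of the fetal liver at E12.5, in mice of strain 129S6/SvEvTac. The labels divide 15 libraries into 5 groups of 3. Mice group 1 consists of wildtype and mutant libraries, labelled polyA RNA. Mice group 2 adds a low-yield mutant to its wildtype and mutant libraries, all labelled total RNA. The mutated gene is Rpl5, which encodes a large subunit protein of the ribosome. The deposited sample sheet of mice group 2 records its 6 mutant libraries as Rpl5plusSkax23Jus, and the labels of mice group 1 give the mutant only as M. What low-yield refers to is not defined in the labels. Nor do they say whether replicates came from separate embryos, litters or pools, so p-values measure the spread between these libraries, which may be partly technical. Levels were compared only within a mice group, since polyA and total RNA are not on the same scale.

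The transcription factor p53 is held low in unstressed cells by the ubiquitin ligase Mdm2. When ribosome assembly is disturbed, free Rpl5 and Rpl11 can bind Mdm2 with the 5S ribosomal RNA, which lets p53 accumulate. Among the genes that p53 then switches on is Cdkn1a, which encodes p21, an inhibitor of cyclin-dependent kinases that holds cells before DNA replication, and red cell progenitors, which divide rapidly, are known to be sensitive to this route.

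In both groups of mice, 6 of the 9 genes were higher in the mutant than in wildtype: Cdkn1a, Plk2, Zmat3, Psrc1, Ccng1 and Gtse1. A gene is called higher or lower here when its adjusted p in edgeR's quasi-likelihood test is under 0.05 over all genes tested, and 5.79% of all genes were called higher in mice group 1 and 3.32% in the mutant of mice group 2. The increases ran from 13.9-fold for Cdkn1a in mice group 1 and 14.1-fold in mice group 2 down to 1.31-fold and 1.23-fold for Gtse1. Btg2, an antiproliferative gene, was at 0.491 and 0.576 times the wildtype level and was called lower in mice group 1, as were 6.78% of all genes in that direction. Plk3 and Ckap2 were called in neither.

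Counted in both directions, 7 of the 9 genes were called in mice group 1 against 12.6% of all genes tested, and 6 in the mutant of mice group 2 against 6.27%. The low-yield mutant had 5 of the 9 higher and 1 lower, against 12.5% of all genes (6.68% higher, 5.86% lower). The median log2 fold change of the 9 genes was 1.60, 1.44 and 1.11 in these comparisons, where the median of all genes tested was within 0.01 of 0. All mutant libraries were above all wildtype libraries of their group for 6 genes in each comparison, with Ckap2 in place of Gtse1 in the low-yield mutant. This held for 15% of all genes in mice group 1, 11.5% in the mutant of mice group 2 and 15.3% in its low-yield mutant. Btg2 alone lay wholly below wildtype, in mice group 1 and in the low-yield mutant, as did 16.6% and 14.6% of all genes. With the replicate number as a block, the count of all genes called in mice group 1 went from 1766 to 2863, and 7 of the 9 genes were called with the block too.

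To show what lies upstream of genes that moved and one that did not, the stretch from 250 to 31 bases before the start is given for 4 of them, from RefSeq on GRCm38.p6. Capitals mark matches to the p53 half-site, either exact or in a directly adjacent pair with at most 2 mismatches. They were searched on both strands in 32851 upstream windows of 250 bases, and 8 of the 9 genes had a window, with 11 windows between them.
Cdkn1a, chr17:29090729-29090948, forward strand: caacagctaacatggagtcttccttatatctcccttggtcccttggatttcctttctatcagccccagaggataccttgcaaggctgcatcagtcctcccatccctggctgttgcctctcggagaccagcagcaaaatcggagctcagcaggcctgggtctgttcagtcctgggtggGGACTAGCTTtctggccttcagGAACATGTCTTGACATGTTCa
Ccng1, chr11:40755317-40755536, reverse strand: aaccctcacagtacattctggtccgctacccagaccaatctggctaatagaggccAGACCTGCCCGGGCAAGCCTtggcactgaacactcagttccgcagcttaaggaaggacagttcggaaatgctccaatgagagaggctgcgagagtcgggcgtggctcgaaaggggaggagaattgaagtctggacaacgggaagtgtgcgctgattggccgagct
Ckap2, chr8:22185850-22186069, reverse strand: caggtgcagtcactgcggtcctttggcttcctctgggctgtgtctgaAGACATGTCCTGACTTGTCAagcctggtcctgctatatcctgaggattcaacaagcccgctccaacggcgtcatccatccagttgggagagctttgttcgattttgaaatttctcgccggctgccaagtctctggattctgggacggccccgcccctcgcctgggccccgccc
Plk2, chr13:110394794-110395013, forward strand: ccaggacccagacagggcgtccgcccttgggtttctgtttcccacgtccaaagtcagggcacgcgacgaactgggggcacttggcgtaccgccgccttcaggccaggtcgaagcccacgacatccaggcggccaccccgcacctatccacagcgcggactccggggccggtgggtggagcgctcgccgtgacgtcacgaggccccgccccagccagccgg

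Adjacent pairs of p53 half-sites stood in windows of 3 of the 8 genes, and in 3 of the 11 windows. Cdkn1a has a second window, chr17:29093519-29093768, which precedes a different start, further downstream, and held no half-site and no pair. Positions below are counted only from the start that follows the window shown. The pair of Cdkn1a in the window shown, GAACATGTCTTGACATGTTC, ran from base -51 to -32 with 1 mismatch, and that of Ccng1, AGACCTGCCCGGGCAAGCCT, from -195 to -176 with 1 mismatch. Ckap2, whose level was not called in any comparison, held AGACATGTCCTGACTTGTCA from -203 to -184 with 2 mismatches. A pair with at most 2 mismatches occurred in 0.271% of all windows and one with at most 1 mismatch in 0.0578%. Plk2, Psrc1 and Gtse1, which rose in both groups of mice, and Btg2 and Plk3 had no such pair in these windows. Of the other letters searched on both strands, CCAAT occurred in 7 of the 11 windows (33.8% of all windows), which belong to 5 of the 8 genes. GGGCGG occurred in 6 windows (32.7%) and TTTGAA in 1, that of Ckap2 (16%). The windows of Psrc1 overlap, so the same letters can be counted in both. A match is a description of the letters and not a binding site, and its absence covers only this window.

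Total counts ran from 48510828 to 58513669 per library in mice group 1 and from 24954324 to 44827821 in mice group 2. Rpl5 served as the check of the labels. Its level was between 520 and 570 CPM (the normalised count per library) in the mutant libraries of mice group 1 against 656 to 744 in wildtype. In mice group 2 it was 232 to 248 CPM in the mutant and 219 to 278 in the low-yield mutant against 303 to 374 in wildtype. No mutant or low-yield library overlapped a wildtype library of its group. Of all genes, 16.6% lay wholly below wildtype in mice group 1 and 14.6% in the low-yield mutant of mice group 2. Rpl5 has processed copies of near-identical sequence, to which some of its reads may have been assigned. Fam69a, a gene on the opposite strand, shares 953 exon bases with Rpl5 in the annotation. The 15 markers of the erythroid lineage were detected in all 5 groups, and their summed level was 3960 to 4120 CPM in the mutants of mice group 1 against 5550 to 8070 in wildtype. In mice group 2 the sum was 5200 to 5920 in the mutant and 4720 to 6070 in the low-yield mutant against 6820 to 10300 in wildtype. Of the 15 markers, 10 were called lower in mice group 1, 4 lower and 1 higher in the mutant of mice group 2, and 7 lower and 1 higher in its low-yield mutant. The summed level was thus lower in mutants than in wildtype in each comparison with wildtype and overlapped between the kinds of mutant, and its part in the changes given below was not tested. The share of counts from mitochondrial genes was 1.6% to 1.98% in the mutants of mice group 1 against 2.36% to 2.81% in wildtype, and its part was not tested either. In mice group 2 it overlapped between all groups, at 0.499% to 1.22%. In bulk libraries like these, fewer cells of a type and less RNA per cell cannot be told apart.

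**Figure D1:**
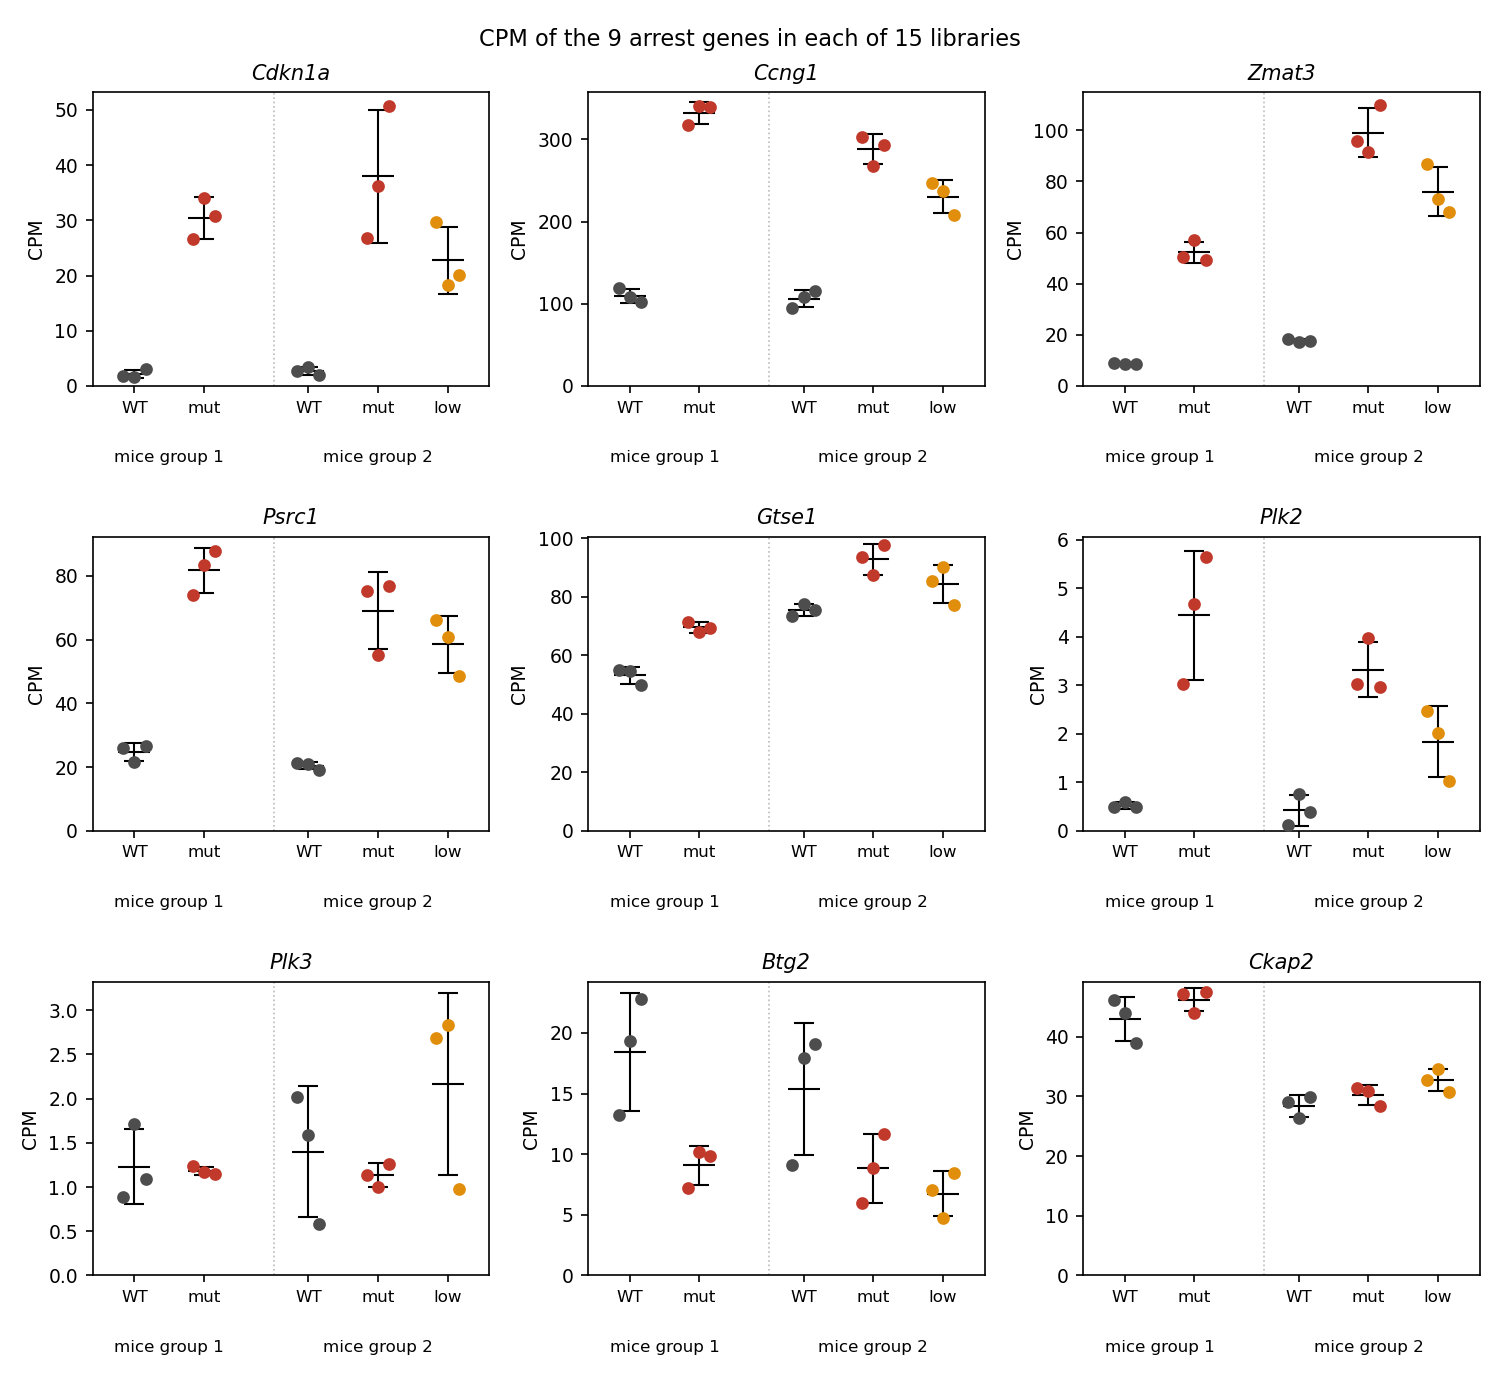
Level of each gene in each library. The y axis is CPM (the normalised count, from 0), points are libraries, and bars are the mean and SD of 3 libraries, for wildtype (WT), mutant (mut) and low-yield mutant (low) libraries of both groups of mice. For Cdkn1a, Ccng1, Zmat3, Psrc1 and Plk2 all mutant points lie above all wildtype points of their group, whereas those of Plk3 are mixed. The mutant points of Btg2 lie below all wildtype points in mice group 1 and overlap them in mice group 2.

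Cdkn1a (ENSMUSG00000023067; GRCm38 chromosome 17, 29090976 to 29100727, forward strand), the p21 gene, had CPM values of 1.84, 1.60 and 3.05 in the wildtype libraries of mice group 1, and of 26.6, 34.1 and 30.8 in the mutant ones. The 95, 83 and 178 reads behind the wildtype values compare with 1312, 1690 and 1557 in the mutant, so the gene was low in wildtype but counted in each library. Mice group 2 gave 2.72, 3.44 and 2.05 CPM in wildtype, 26.9, 36.2 and 50.8 in the mutant and 29.6, 18.4 and 20.2 in the low-yield mutant. No mutant or low-yield library overlapped a wildtype library, and within mice group 2 the mutants had an SD of 12.05 around a mean of 37.9 CPM. The log2 fold change was 3.80 in mice group 1 (SE 0.20, adjusted p 2.51e-06, edgeR), which placed Cdkn1a 11th from the top of 14048 genes tested. Mice group 2 gave 3.82 in the mutant (SE 0.31, adjusted p 1.89e-04, edgeR), which was rank 31 of 15024 genes tested. In the low-yield mutant it was 3.07 (SE 0.32, adjusted p 2.69e-04, edgeR), at rank 97. Both were compared with the same 3 wildtype libraries. An unnamed transcript on the opposite strand shares 273 exon bases with Cdkn1a in the annotation and has no row in the tables. Whether counting used strand is not given in the sources used here, so its reads could not be separated.

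Ccng1 (ENSMUSG00000020326; chromosome 11, 40748552 to 40755311, reverse strand) encodes cyclin G1, which brings a phosphatase to Mdm2 and so takes part in the return of p53 to its low level. It was the most abundant of the 9 genes per kilobase of exon. Wildtype libraries of mice group 1 had 119, 108 and 102 CPM, and mutant libraries 317, 340 and 339. In the second group of mice the values were 95.4, 108 and 116 in wildtype, 302, 268 and 294 in the mutant and 247, 237 and 207 in the low-yield mutant. Replicates stayed close together, with a coefficient of variation of 9.81% or less in each of the 5 groups, and genotypes did not overlap. Ccng1 rose 3.03-fold in mice group 1 (log2 fold change 1.60, SE 0.07, adjusted p 3.45e-07), 2.71-fold in the mutant of mice group 2 (1.44, SE 0.09, adjusted p 6.86e-07) and 2.16-fold in its low-yield mutant (1.11, SE 0.09, adjusted p 1.36e-05).

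Zmat3 (ENSMUSG00000027663; chromosome 3, 32334792 to 32366014, reverse strand), which encodes a zinc finger protein that binds RNA, separated the genotypes with the smallest p-value of all genes tested in both groups of mice. Its CPM was 9.17, 8.44 and 8.62 in wildtype and 50.4, 57.0 and 49.4 in mutant libraries of mice group 1. Mice group 2 had 18.3, 17.4 and 17.6 CPM in wildtype, 95.8, 91.5 and 109.9 in the mutant and 86.8, 73.1 and 68.1 in the low-yield mutant. Wildtype libraries were almost alike within each group, and the lowest mutant value in mice group 2 was above the highest low-yield one. The log2 fold change was 2.58 (SE 0.10, adjusted p 1.25e-07) in mice group 1, 2.48 (SE 0.11, adjusted p 8.19e-09) in the mutant of mice group 2 and 2.10 (SE 0.11, adjusted p 8.83e-08) in its low-yield mutant, or 5.98-fold, 5.58-fold and 4.27-fold.

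Psrc1, Gtse1 and Ckap2 encode proteins that bind microtubules of the mitotic spindle, and the 3 genes differed in how they changed. Psrc1 (ENSMUSG00000068744; chromosome 3, 108383839 to 108388231) stood at 26.1, 21.6 and 26.6 CPM in wildtype and 74.1, 83.5 and 87.8 in mutant libraries of mice group 1. Its values were 21.4, 21.03 and 19.1 CPM in wildtype, 75.2, 55.3 and 77.0 in the mutant and 66.1, 60.7 and 48.7 in the low-yield mutant of mice group 2. All mutant and low-yield libraries lay above all wildtype ones, while mutant and low-yield libraries overlapped. Psrc1 rose by a log2 fold change of 1.72 (SE 0.10, adjusted p 2.51e-06), 1.76 (SE 0.14, adjusted p 9.83e-06) and 1.51 (SE 0.14, adjusted p 2.33e-05) in the comparisons of the mutants of mice group 1, the mutants of mice group 2 and the low-yield mutants with wildtype.

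Gtse1 (ENSMUSG00000022385; chromosome 15, 85859745 to 85876573), whose protein also binds p53 and moves it out of the nucleus, changed far less. Mice group 1 had 54.9, 54.7 and 49.8 CPM in wildtype and 71.4, 67.8 and 69.5 in the mutant, and the groups did not overlap. The log2 fold change was 0.39 there (SE 0.07, adjusted p 0.00425). Wildtype libraries of mice group 2 were at 73.4, 77.6 and 75.6 CPM, mutant ones at 93.6, 87.3 and 97.7 and low-yield ones at 85.5, 90.0 and 77.2. The mutant was again above all wildtype libraries, and the lowest low-yield library came within the wildtype range. Gtse1 was called there in the mutant (0.30, SE 0.08, adjusted p 0.0483) and not in the low-yield mutant (0.16, SE 0.08, adjusted p 0.258). The call in the mutant was close to the threshold: it was lost without any 1 of the 3 wildtype libraries, mutant replicates 1 or 3, or low-yield replicates 1 or 2 (log2 fold change 0.26 to 0.34 and adjusted p 0.0429 to 0.207 over the 9 fits that left out a library). It was also lost in the fit on the 6 compared libraries (adjusted p 0.0671).

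Ckap2 (ENSMUSG00000037725; chromosome 8, 22168160 to 22185819) had 46.1, 43.9 and 39.0 CPM in wildtype and 47.1, 43.9 and 47.5 in mutant libraries of mice group 1. In the other group of mice it was at 29.1, 26.4 and 29.9 CPM in wildtype, 31.4, 30.9 and 28.4 in the mutant and 32.8, 34.6 and 30.8 in the low-yield mutant. Mutant and wildtype libraries overlapped in both groups, and the low-yield libraries lay just above the wildtype ones. The log2 fold changes of 0.10 (95% interval -0.08 to 0.28), 0.09 (-0.13 to 0.30) and 0.20 (-0.01 to 0.41) did not pass the test (adjusted p 0.462, 0.706 and 0.223). Each interval ends well short of the changes of Psrc1.

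Plk2 and Plk3 encode polo-like kinases that respond to growth signals and stress, and were the least abundant of the 9 genes per kilobase of exon in wildtype. Plk2 (ENSMUSG00000021701; chromosome 13, 110395046 to 110400844) had 25, 31 and 28 reads in the wildtype libraries of mice group 1 (0.483, 0.596 and 0.480 CPM) and 149, 232 and 286 in the mutant libraries (3.02, 4.68 and 5.65 CPM). Its counts in mice group 2 were 4, 26 and 17 in wildtype (0.127, 0.751 and 0.379 CPM), 90, 103 and 115 in the mutant (3.02, 3.98 and 2.97) and 77, 66 and 43 in the low-yield mutant (2.46, 2.01 and 1.03). The genotypes did not overlap in either group, although wildtype replicate 1 of mice group 2 rested on 4 reads. Plk2 rose 8.56-fold in mice group 1 (log2 fold change 3.10, SE 0.36, adjusted p 4.37e-04), 7.70-fold in the mutant of mice group 2 (2.94, SE 0.47, adjusted p 0.00232) and 4.17-fold in its low-yield mutant (2.06, SE 0.52, adjusted p 0.0177). The low-yield call was lost without low-yield replicates 1 or 2 or wildtype replicate 3 (log2 fold change 1.71 to 2.68 and adjusted p 0.00546 to 0.0888 over the 9 fits).

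For Plk3 (ENSMUSG00000028680; chromosome 4, 117128655 to 117133963) the values were 0.889, 1.71 and 1.10 CPM in wildtype and 1.24, 1.17 and 1.15 in mutant libraries of mice group 1. Mice group 2 showed 2.02, 1.59 and 0.579 CPM in wildtype, 1.14, 1.00 and 1.26 in the mutant and 2.69, 2.83 and 0.982 in the low-yield mutant. All groups overlapped, and in mice group 2 replicate 3 was the lowest library of both wildtype and the low-yield mutant. The log2 fold changes of -0.05 (95% interval -0.84 to 0.73), -0.20 (-1.32 to 0.93) and 0.66 (-0.32 to 1.63) were not called (adjusted p 0.944, 0.885 and 0.397). The gene had 26 to 93 reads per library, and the intervals do not exclude changes of the size they span. Tctex1d4, a gene on the opposite strand that shares 84 exon bases with Plk3, had at most 2 reads in any library.

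Btg2 (ENSMUSG00000020423; chromosome 1, 134075170 to 134079120, reverse strand) encodes an antiproliferative protein that helps shorten the tails of messenger RNAs, and was the only one of the 9 genes called lower. Its CPM was 13.2, 19.3 and 22.8 in wildtype and 7.23, 10.2 and 9.86 in mutant libraries of mice group 1, without overlap. The log2 fold change was -1.02 (SE 0.21, adjusted p 0.0153), and the call was lost without wildtype replicate 2 (adjusted p 0.0612) or mutant replicate 3 (0.0616). Mice group 2 had 9.11, 17.97 and 19.1 CPM in wildtype, 6.01, 8.84 and 11.6 in the mutant and 7.03, 4.75 and 8.44 in the low-yield mutant. Wildtype replicate 1 was the lowest of its group, below the highest mutant library but above every low-yield library. Btg2 was called lower in the low-yield mutant (-1.19, SE 0.31, adjusted p 0.0313) and was not called in the mutant (-0.80, SE 0.31, adjusted p 0.167). Without wildtype replicate 1 the mutant passed too (-1.04, adjusted p 0.0176). The low-yield call was lost without wildtype replicates 2 or 3, mutant replicate 2, or low-yield replicates 1 or 2 (log2 fold change -1.44 to -0.99 and adjusted p 0.00168 to 0.113 over the 9 fits).

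**Figure D2:**
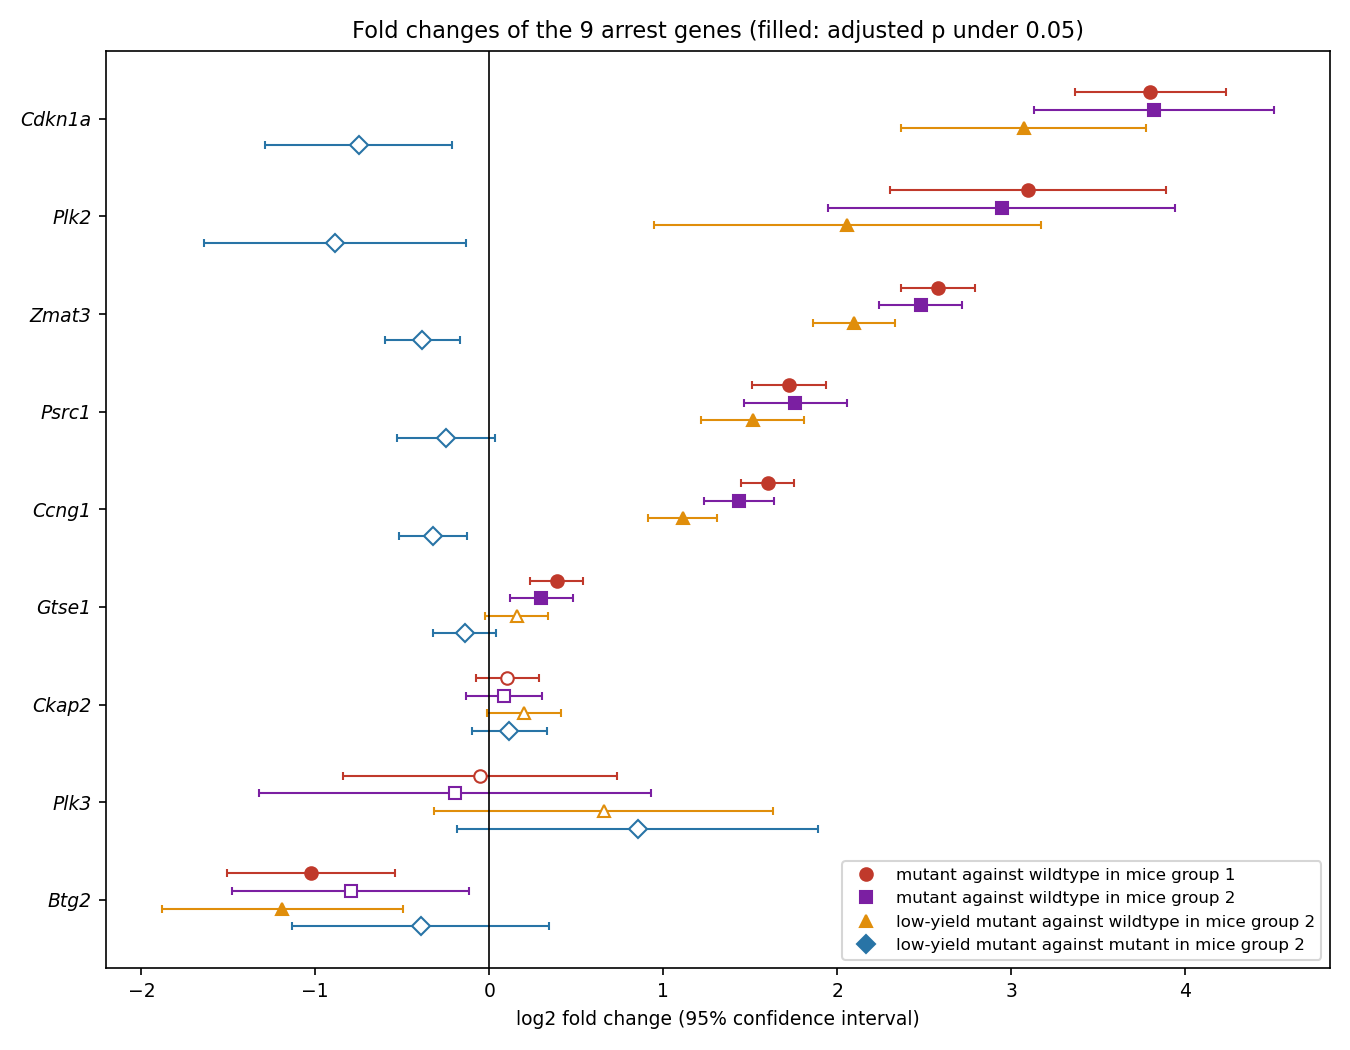
Log2 fold changes with 95% confidence intervals (x axis) for each gene (y axis) in 4 comparisons, filled where the adjusted p is under 0.05. The 3 comparisons of mice group 2 share libraries; the change of Cdkn1a, 3.80 and 3.82, is nearly the same in both groups of mice, and the points of low-yield against mutant libraries lie left of 0 for 7 genes.

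**Figure D3:**
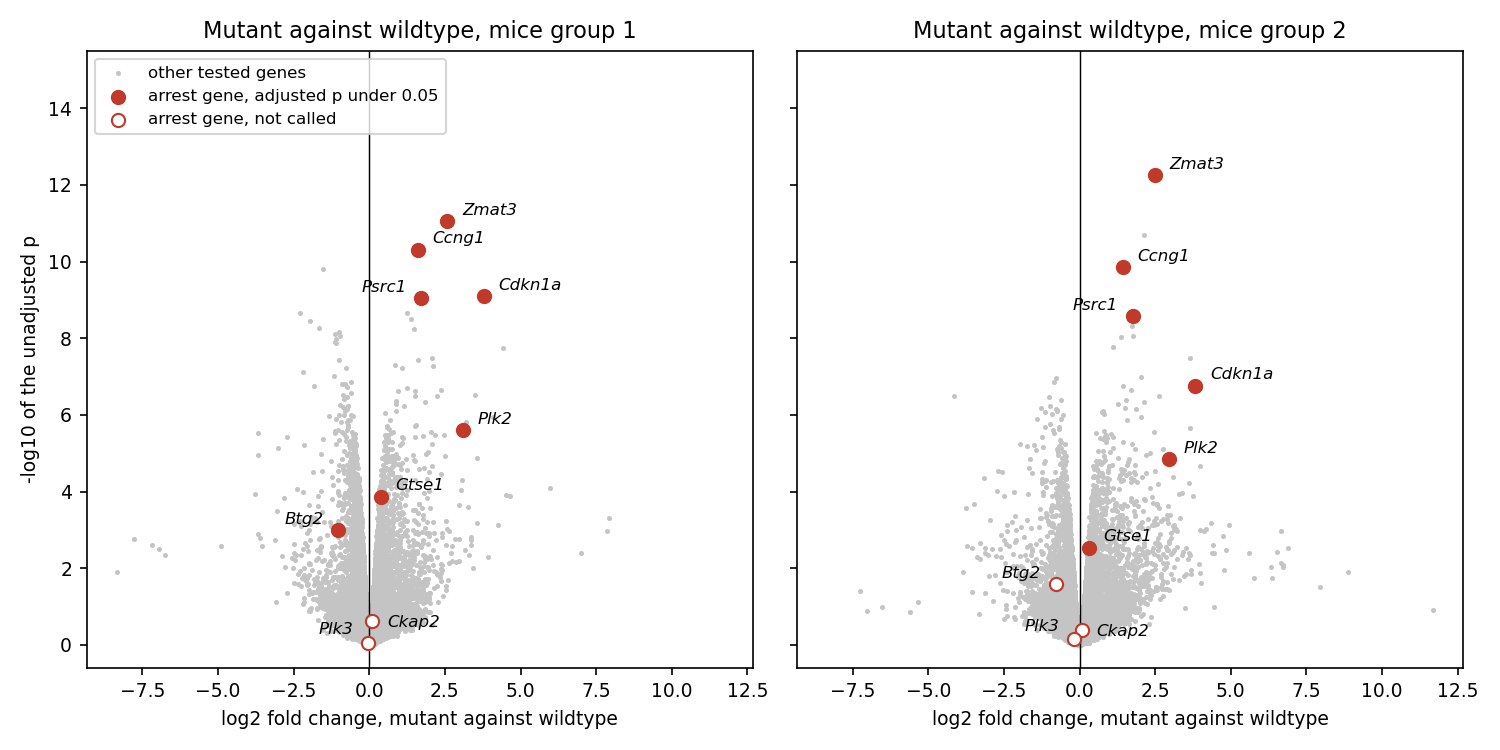
Each tested gene by its log2 fold change (x axis) and the -log10 of its unadjusted p (y axis) in the mutant against wildtype comparison of mice group 1 (left) and mice group 2 (right), with the 9 genes marked. Zmat3 has the smallest p in both panels, with Ccng1, Psrc1 and Cdkn1a also near the top and Plk3 and Ckap2 at the bottom.

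The groups of mice share no library, so each gives its own estimate of the mutant's difference. Over both, with the mice group as a block, 7 of the 9 genes were called, where 19.6% of all genes were (9.8% in each direction). The log2 fold change was 3.81 for Cdkn1a (SE 0.18, adjusted p 1.90e-09), 3.04 for Plk2 (SE 0.27, adjusted p 2.35e-07), 2.53 for Zmat3 (SE 0.07, adjusted p 7.61e-15) and 1.74 for Psrc1 (SE 0.08, adjusted p 5.51e-11). Ccng1 had 1.52 (SE 0.06, adjusted p 7.73e-12), Gtse1 0.34 (SE 0.06, adjusted p 1.93e-04) and Btg2 -0.92 (SE 0.20, adjusted p 0.00633). The difference in the mutant's effect between the groups of mice was tested as an interaction. None of the 9 genes was called for it by edgeR or DESeq2, and 0 of the 9 had an unadjusted p under 0.05, where 3 of 15954 genes were called (0.0188%) and 342 had such a p (2.14%). The intervals of this difference, mice group 2 minus mice group 1, were narrow for Ccng1 (-0.15 on the log2 scale, 95% interval -0.41 to 0.12), Zmat3 (-0.08, -0.38 to 0.22) and Psrc1 (0.06, -0.30 to 0.42). They were wide for Cdkn1a (0.05, -0.86 to 0.95) and wider for Plk2 (-0.13, -1.60 to 1.34). Gtse1 had -0.07 (-0.31 to 0.17) and Btg2 0.24 (-0.68 to 1.17).

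The changes of Cdkn1a, Ccng1, Zmat3 and Psrc1 were called in each comparison with wildtype whichever library was left out. Over the 6 such fits of mice group 1, Cdkn1a ranged from 3.62 to 4.15 on the log2 scale, Zmat3 from 2.51 to 2.63, Psrc1 from 1.63 to 1.79 and Ccng1 from 1.55 to 1.68. The 9 fits of mice group 2 gave Cdkn1a 3.54 to 4.03 in the mutant and 2.84 to 3.27 in the low-yield mutant. Plk2 was called in all of these fits in the mutants of both groups, at 2.89 to 3.31 in mice group 1 and 2.60 to 3.57 in mice group 2.

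Low-yield and other mutants of mice group 2 were then compared directly. In the low-yield mutant, 7 of the 9 genes had the lower mean, and Ccng1, Zmat3 and Plk2 had all low-yield libraries below all mutant libraries, which held for 4.15% of all genes tested. At the adjusted threshold edgeR called 0 of 15024 genes (0%), with 480 at an unadjusted p under 0.05 (3.19%), and 4 of the 9 genes were among those. DESeq2 called 6 genes, 0 of the 9 among them. Zmat3 had a log2 fold change of -0.38 (95% interval -0.60 to -0.17, unadjusted p 0.00178, edgeR), Ccng1 of -0.32 (-0.52 to -0.13, unadjusted p 0.00309), Cdkn1a of -0.75 (-1.29 to -0.21, unadjusted p 0.0111) and Plk2 of -0.89 (-1.64 to -0.13, unadjusted p 0.0242). Each had an adjusted p of 1.00 in edgeR, so no difference between the kinds of mutant was established for any of the 9 genes. Psrc1 (-0.25, -0.53 to 0.03), Gtse1 (-0.14, -0.32 to 0.04), Btg2 (-0.39, -1.14 to 0.35), Ckap2 (0.12, -0.10 to 0.33) and Plk3 (0.85, -0.18 to 1.89) had intervals that include 0. Over the 9 fits that left out a library, Zmat3 ran from -0.49 to -0.30 and Ccng1 from -0.37 to -0.25. Cdkn1a ran from -0.98 to -0.47 and Plk2 from -1.15 to -0.55. Within the low-yield group, replicate 1 was the highest library for 5 of the 6 genes that rose in the mutants. Replicate 3 was the lowest for 5. Among the other mutants of mice group 2, replicate 3 was the highest for 4 and replicate 2 the lowest for 4, and in mice group 1 mutant replicate 1 was the lowest for 4.

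Set per kilobase of exon, the genes could also be ordered by level. In wildtype libraries of mice group 1, Ccng1 was the highest at 31.2 ± 2.43 CPM per kb (SD, n = 3), followed by Gtse1 at 19.4 ± 1.06, Ckap2 at 13.4 ± 1.14, Psrc1 at 7.36 ± 0.811 and Btg2 at 6.73 ± 1.77. Lower down were Zmat3 at 0.764 ± 0.0331, Cdkn1a at 0.608 ± 0.219, Plk3 at 0.487 ± 0.169 and Plk2 at 0.116 ± 0.0147. Psrc1 overlapped Btg2, Cdkn1a overlapped both Zmat3 and Plk3, and the other neighbours did not overlap. The order in mutant libraries was Ccng1 at 94.6 ± 3.71 CPM per kb, Gtse1 at 25.4 ± 0.656, Psrc1 at 24.3 ± 2.09, Ckap2 at 14.4 ± 0.607, Cdkn1a at 8.58 ± 1.06, Zmat3 at 4.57 ± 0.364, Btg2 at 3.31 ± 0.587, Plk2 at 0.991 ± 0.297 and Plk3 at 0.468 ± 0.0183. Gtse1 and Psrc1 overlapped there. In mice group 1, Cdkn1a thus lay below Btg2 in every wildtype library and above it in every mutant library, and Plk2 likewise crossed Plk3.

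Mice group 2 had the same order in wildtype, from Ccng1 at 30.3 ± 2.97 CPM per kb through Gtse1 (27.5 ± 0.760), Ckap2 (8.84 ± 0.573), Psrc1 (6.09 ± 0.367), Btg2 (5.61 ± 1.99), Zmat3 (1.56 ± 0.0413), Cdkn1a (0.770 ± 0.195) and Plk3 (0.552 ± 0.293) to Plk2 (0.0933 ± 0.0700). Ccng1 overlapped Gtse1, Psrc1 overlapped Btg2, and Cdkn1a overlapped Plk3. In the mutant, Cdkn1a reached 10.7 ± 3.39 CPM per kb and overlapped Ckap2 (9.40 ± 0.505) and Zmat3 (8.66 ± 0.844), with Psrc1 above them at 20.6 ± 3.57. In the low-yield mutant Cdkn1a was at 6.40 ± 1.7 CPM per kb, beside Zmat3 at 6.65 ± 0.846 and below Ckap2 at 10.2 ± 0.583. Plk2, at 0.408 ± 0.163, stayed below Plk3, at 0.856 ± 0.406, in each low-yield library.

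**Figure D4:**
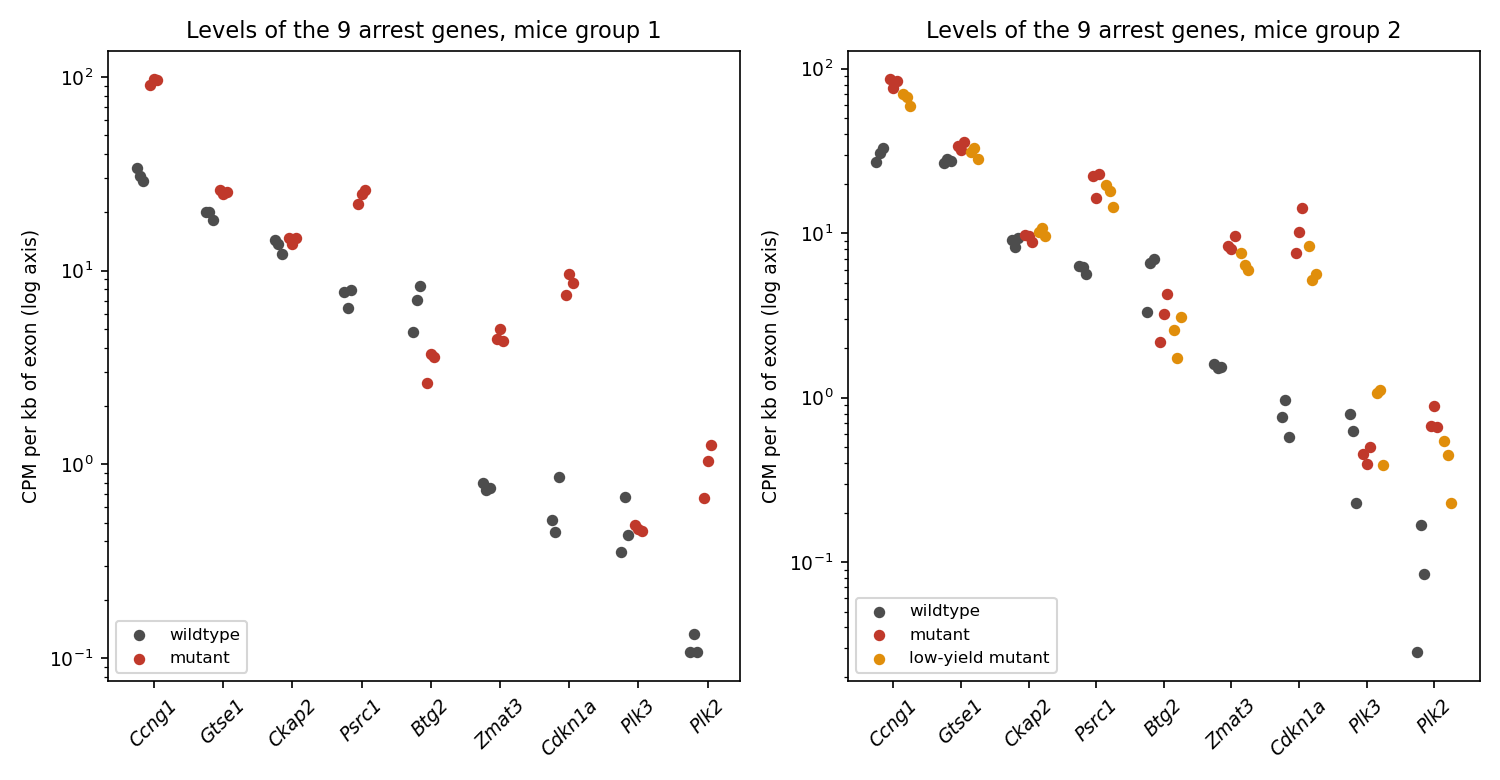
Level of each gene per kb of exon (y axis, CPM per kb, log scale), ordered by the wildtype mean, in mice group 1 (left) and mice group 2 (right), with a point for each library. Cdkn1a lies near the bottom of the wildtype order and beside or above Zmat3 in mutant libraries.

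The 6 genes that rose were set against other genes by likeness of pattern, measured as the root mean square difference between the log2 CPM of a pair of genes over the 15 libraries, each centred on the wildtype mean of its mice group, among 10136 genes. Nearest to Cdkn1a was Eda2r, itself a p53 target that encodes a receptor of the tumour necrosis factor family, at a distance of 0.517, followed by Gask1b (0.777) and Hecw1 (1.11). Eda2r had log2 fold changes of 4.43 in mice group 1, 3.67 in the mutant of mice group 2 and 2.74 in its low-yield mutant. Gask1b had 3.50, 3.40 and 3.89. The estimate of Eda2r was thus smaller in the low-yield than in the other mutants, as for Cdkn1a, and that of Gask1b was larger, while edgeR called no gene between the kinds of mutant.

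Ccng1 lay nearest to Ano1 (0.195), Raver2 (0.209) and Olfm1 (0.240), and Psrc1 to Fstl1 (0.194), Vat1 (0.217) and Peg10 (0.228). Zmat3 had no neighbour as close: Adgrl2 was at 0.359, Pcdh7 at 0.369 and Tjp1 at 0.391. Plk2 was nearest to Nid1 (0.665), Inka2 (0.725) and Parm1 (0.786), and Gtse1, whose changes were small, to Eif2d (0.0764), Banf1 (0.0800) and Pigu (0.0832). Among the 9 genes themselves the closest pair was Gtse1 and Ckap2 (0.176), and then Ccng1 and Psrc1 (0.262). Plk2 was closer to Zmat3 (0.59) than to Nid1. Cdkn1a was closer to Plk2 (0.823) and Zmat3 (0.951) than to Hecw1. These distances describe the 15 libraries, which are the same for every gene.

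Among 45 other p53 targets, 40 were tested, and 12 were called higher and 1 lower in mice group 1. The counts were 8 higher and 1 lower in the mutant and 7 higher and 3 lower in the low-yield mutant of mice group 2, with median log2 fold changes of 0.25, 0.29 and 0.15. Over all genes tested, 5.79%, 3.32% and 6.68% were called higher in these comparisons and 6.78%, 2.95% and 5.86% lower. Besides Eda2r (adjusted p 1.40e-05 in mice group 1 and 5.45e-05 in the mutant of mice group 2), the genes called higher in both groups of mice with the largest changes were Phlda3, Bbc3 and Tnfrsf10b. Phlda3, which restrains Akt signalling, rose by 1.37 and 1.10 on the log2 scale (adjusted p 5.46e-06 and 0.00106). Bbc3, which encodes the death-promoting protein Puma, rose by 1.15 and 1.27 (adjusted p 0.0101 and 3.36e-04), and Tnfrsf10b, a death receptor, by 0.69 and 0.83 (adjusted p 0.0169 and 0.0115).

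Of the 22 other genes known to slow or stop the cell cycle, those of the CDK inhibitors, pocket proteins and Gadd45 proteins among them, 18 were tested in mice group 1 and 20 in mice group 2. The calls in mice group 1 were 3, all lower, and those in mice group 2 were 1 higher and 3 lower in the mutant and 1 higher and 5 lower in the low-yield mutant, where 12.6%, 6.27% and 12.5% of all genes were called in either direction. This list shares 6 genes with the other p53 targets, Gadd45a and Tob1 among them, and 6 with the paralogues. Rbl1, a relative of the retinoblastoma protein, fell by 0.45 and 0.49 on the log2 scale in the mutants of the first and second group of mice (adjusted p 0.00228 and 0.00391). Pml, the organiser of PML nuclear bodies, fell by 0.47 and 0.35 (adjusted p 0.00107 and 0.0227). The median log2 fold changes of the list were -0.15, -0.25 and -0.22.

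Of 17 paralogues of the 9 genes, 14 were tested in each comparison. Ccni, a cyclin related to Ccng1, was called lower in mice group 1 (-0.37, adjusted p 0.0234), in the mutant of mice group 2 (-0.40, adjusted p 0.0159) and in its low-yield mutant (-0.58, adjusted p 8.07e-04). Tob1, a relative of Btg2, was called higher in the mutant of mice group 2 (0.55, adjusted p 0.0455). It was not called in mice group 1 (0.45, adjusted p 0.0974) or in the low-yield mutant (0.19, adjusted p 0.474). The other 12 tested paralogues were called in none of the 3 comparisons with wildtype, where 12.6%, 6.27% and 12.5% of all genes were called, and the median of all 14 was -0.13, -0.07 and -0.03.

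Genes that carry cells from G1 into S phase, the step at which p21 acts, were also counted. All 30 on the list were tested, and 2 were called higher and 13 lower in mice group 1, 1 higher and 7 lower in the mutant, and 1 higher and 10 lower in the low-yield mutant of mice group 2. Of all genes, 6.78%, 2.95% and 5.86% were called lower in these comparisons, and 5.79%, 3.32% and 6.68% higher. The median log2 fold changes of the list were small, at -0.19, -0.16 and -0.16. E2f2, a transcription factor for S phase genes, fell by 0.91 and 0.76 in the mutants of the first and second group of mice (adjusted p 7.35e-05 and 3.79e-04), and E2f1 by 0.52 and 0.45 (adjusted p 0.00258 and 0.00507). Cyclin E1 (Ccne1) fell by 0.66 and 0.46 (adjusted p 9.09e-04 and 0.0207), and cyclin D3 (Ccnd3) by 0.48 and 0.54 (adjusted p 0.00551 and 0.00626). Cyclin D2 (Ccnd2) rose by 0.86 and 0.74 (adjusted p 3.22e-05 and 0.00569).

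Mitotic genes, 40 of which were tested, had 2 called higher and 3 lower in mice group 1, and 3 lower in both the mutant and the low-yield mutant of mice group 2, where 12.6%, 6.27% and 12.5% of all genes were called in either direction. Their median log2 fold changes were -0.03, -0.04 and -0.02. Cdc25b, a phosphatase that activates mitotic kinases, fell by 1.23 and 0.93 on the log2 scale (adjusted p 0.00217 and 0.0158), and Mybl2, a transcription factor of cycling cells, by 0.45 and 0.33 (adjusted p 0.00279 and 0.0171). Psrc1, Gtse1 and Ckap2, which act in the same phase, are not on this list.

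**Figure D5:**
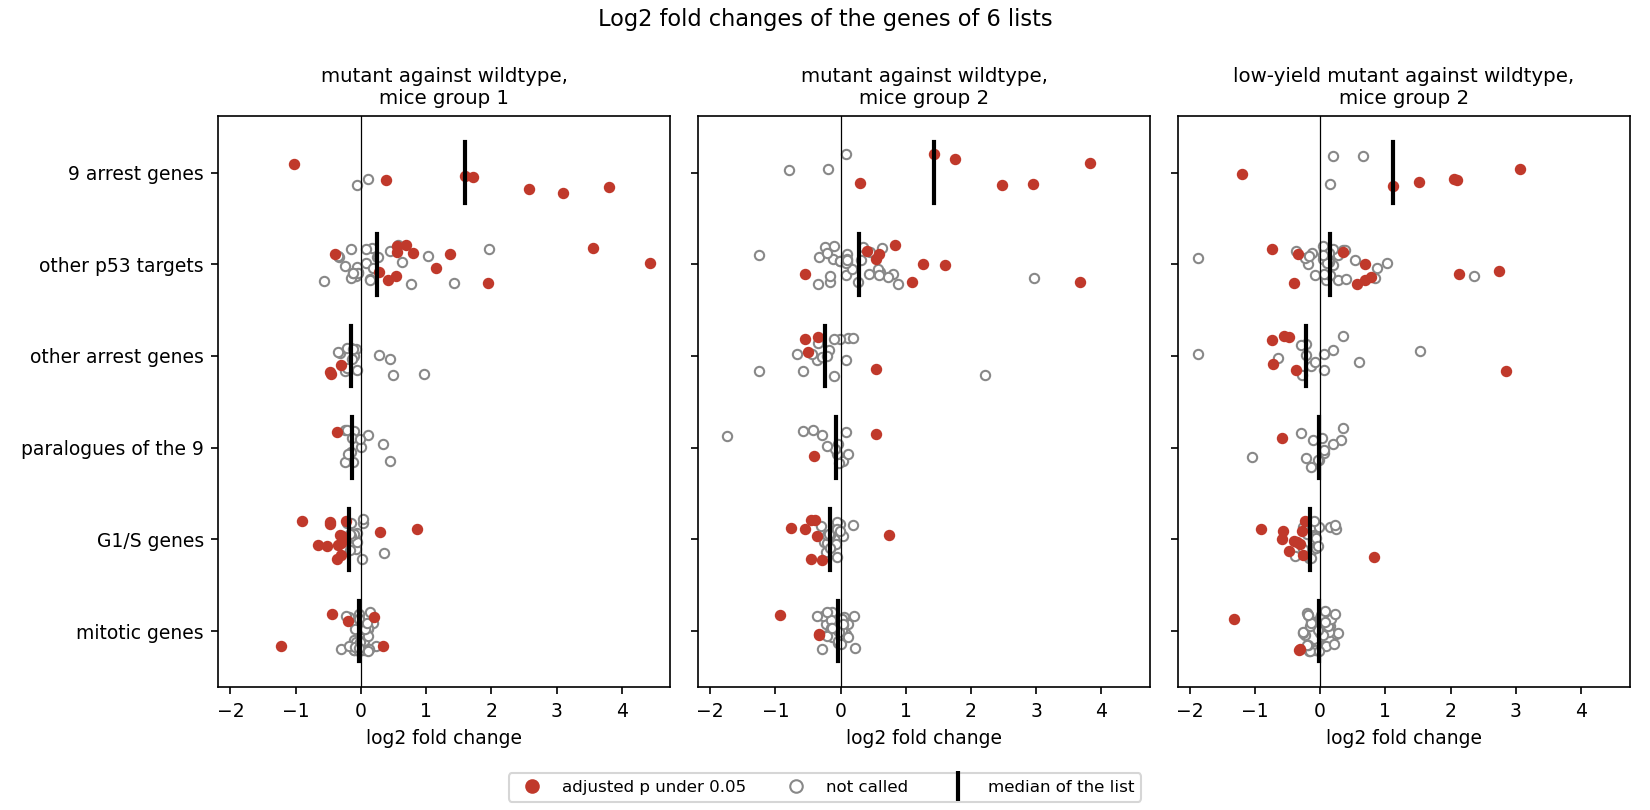
Log2 fold changes (x axis) of the tested genes of 6 lists (rows; vertical spread within a row has no meaning) in the 3 comparisons with wildtype, with red points for genes called at an adjusted p under 0.05 and a black bar at the median of each list. The medians of the 9 genes are 1.60, 1.44 and 1.11, while those of the other lists lie between -0.25 and 0.29.

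Markers of other blood and liver cells were measured beside these results. Of 15 granulocyte and mast cell markers, 14 were detected in wildtype libraries of mice group 2 (Mcpt8 was at 0), and their summed level was 18.3 to 38.7 CPM there, 148 to 239 in the mutant and 184 to 403 in the low-yield mutant. In mice group 1 it was 108 to 838 CPM in wildtype and 280 to 1570 in the mutant, ranges that overlap. Summed megakaryocyte markers were at 22.2 to 34 CPM in wildtype and 31.8 to 50.2 in the mutant of mice group 1. They were at 19.3 to 22.5 in wildtype, 31.7 to 34.5 in the mutant and 44.4 to 58.6 in the low-yield mutant of mice group 2. Early progenitor markers ran from 879 to 1030 CPM in wildtype against 985 to 1120 in the mutant of mice group 1, and from 852 to 1030 in wildtype against 1040 to 1150 in the mutant and 1060 to 1270 in the low-yield mutant of mice group 2. All 9 early progenitor markers were detected in each group, and all 10 megakaryocyte markers in each but wildtype of mice group 2, where Ppbp was at 0. The summed levels of all 3 lists separated wildtype from both kinds of mutant in mice group 2. In mice group 1 their ranges overlapped, and the median log2 fold change was 0.61 for the early progenitor, 0.30 for the megakaryocyte and 0.67 for the granulocyte and mast cell markers tested. In the mutant of mice group 2 these medians were 0.51, 0.69 and 2.68, in the same order. In its low-yield mutant they were 0.63, 1.62 and 3.51. The part of these markers in the changes of the 9 genes was not tested.

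All 11 hepatocyte markers were detected, and summed to 35 to 65.3 CPM in wildtype and 6.1 to 22.7 in the mutant of mice group 1, and to 10.2 to 80.9 in wildtype, 9.31 to 49.9 in the mutant and 43.7 to 50.6 in the low-yield mutant of mice group 2. Macrophage markers summed to at most 12.4 CPM in any library, with Cd5l at 0 in all 5 groups, lymphocyte markers to at most 2.52, with Cd3e at 0 in all 5. Endothelial markers were low and separated the genotypes of mice group 2, at 0.896 to 1.9 CPM in wildtype against 3.56 to 5.87 in the mutant and 6.45 to 10 in the low-yield mutant, with Emcn at 0 in wildtype and mutant. In mice group 1 they summed to 2.17 to 4.4 CPM in wildtype and 3.91 to 9.67 in the mutant. Hepatocyte markers moved with genotype in mice group 1 and endothelial markers in mice group 2, and their part in the changes of the 9 genes was not tested.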

How the data were processed

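RNA of 15 libraries was read as paired ends on an Illumina NovaSeq, per the labels' protocols. The submitters' processing notes name cutadapt 2.3, STAR 2.7.8a, RSEM 1.3.3, FastQC 0.11.8, MultiQC 1.7 and the build GRCm38, while neither the release of the annotation nor whether counting used strand is given in the sources used here. The authors deposited an expected count for each gene and library, not normalised. These were already whole, and rounding before the tests changed nothing. Rows that name no mouse gene (at most 5 a table, 4 counts in the table of mice group 1 and 1 in that of mice group 2) were left out. Of the listed genes, 99.4% are in GENCODE M21, which gave positions and exon lengths.

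The tests used edgeR 4.0.16 (TMM, filterByExpr, a robust quasi-likelihood fit, two-sided, Benjamini-Hochberg over all genes tested, threshold 0.05) in R 4.3.3, checked on simulated data. Mice group 1 was fitted on 6 libraries, mice group 2 on its 9, and the fits over both groups on 12, giving 6 comparisons. CPM values are after TMM. No pair of replicates agreed within sampling noise (chi-square per degree of freedom 20.1 to 76.5). The biological coefficient of variation was 22.4% and 19.9% in the first and second group of mice. Same-numbered libraries deviated together in mice group 1 (correlation of deviations across genes 0.441, 0.186 and 0.146 over 3 pairs). Wildtype replicate 3 and mutant replicate 2, which differ in number, also reached 0.23, so the pairing is uncertain. The labels give no pairs. The main fits therefore used none, and the replicate number was a block only in an alternative fit. In mice group 2 only 2 of 9 such pairs were over 0.1 (-0.0681 to 0.241), both of them between wildtype and mutant (0.241 and 0.173).

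The 9 genes, the other lists and the tests were chosen with earlier results of these data known. Named from each other list are the genes called in the same direction in the mutants of both groups of mice. At most 4 were taken per list and direction, by fold change, and any tested paralogue could be named. For each gene that rose in both groups, the 3 nearest in pattern are also named (mean CPM of at least 1, prior count 2). Predicted genes and the 9 genes themselves were passed over there. Alternatives were DESeq2 1.42.0, RLE size factors, no filter, a mean CPM of at least 5, the replicate block, only the libraries compared, and each library left out; the legacy quasi-likelihood mode was added after seeing the data.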

Additional observations from a re-analysis of the deposited data

How the results depend on the processing

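Over 852 values of the 9 genes under the alternatives, 806 kept their direction and side of the threshold. Of the others, 20 lost a call, 2 gained one and 24, none of them called, changed sign. Outside the fits that left out a library, Gtse1 in the mutant of mice group 2 lost its call with no filter (0.30, adjusted p 0.0763) and on the 6 compared libraries (0.30, adjusted p 0.0671), Btg2 in the low-yield mutant lost it with no filter (-1.19, adjusted p 0.0902), and the cause was not tested. The mean CPM filter dropped Plk2 and Plk3, which left no value for them. Signs turned for the interaction of Cdkn1a with DESeq2 (-0.02434) and of Ckap2 in the legacy mode (0.002231).

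With the replicate block 2863 genes were called in mice group 1 and 5 for the interaction. Btg2 in the mutant of mice group 2 was also called (-0.80, adjusted p 0.0292 in edgeR). Whether the numbers pair samples there is not given in the labels. The block changed no other call of the 9 genes. DESeq2 called 1452 genes in the mutant of mice group 2, 6 between low-yield and other mutants and 13 for the interaction. Leaving out a library gave 753 to 1729 genes in mice group 1 (lowest without mutant replicate 3), 425 to 1323 in the mutant (lowest without wildtype replicate 2) and 900 to 2395 in the low-yield mutant of mice group 2 (lowest without low-yield replicate 2), and 0 to 22 between the kinds of mutant (highest without low-yield replicate 3). The same fits gave Plk3 -0.22 to 0.24, -0.64 to 0.17 and, over both groups, -0.28 to 0.032. For the interaction they gave Cdkn1a -0.29 to 0.21, Psrc1 -0.056 to 0.18, Plk2 -0.52 to 0.45, Plk3 -0.60 to 0.21, Btg2 -0.072 to 0.42 and Ckap2 -0.10 to 0.077. Plk2 rested on 4 to 31 reads per wildtype library and Plk3 on 26 to 93 reads per library.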
